A study of Rattus norvegicus with 15 samples.

Results

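The immediate early genes examined here were 10 genes whose transcripts are known to appear within minutes of a stimulus: Fos, Fosb, Jun, Junb, Egr1, Egr2, Arc, Nr4a1, Dusp1 and Atf3. They were chosen by name, and the array carried exactly 1 probe for each, so that 10 of the 41012 probes other than controls were followed. The samples were olfactory epithelia of 8 Brown Norway rats of 6 weeks, 4 males (numbered 1, 2, 5 and 6) and 4 females (numbered 3, 4, 7 and 8), none of them given an odor or other treatment. The epithelia of nostrils A and B were hybridized separately in 7 rats, and male 1 had nostril A alone, which gave 15 one-color arrays (7 male and 8 female). The sample names do not say which nostril was the left one, but the study's methods state that the left epithelium of 1 male was dropped for low RNA integrity, and male 1 is the rat without nostril B. The rats came from 2 suppliers, which the sources tie to no rat other than that male, and suppliers were not analyzed here. All rats were anesthetized with ketamine and decapitated before the epithelium was removed, and the order in which they were processed was not given in the sources used here.

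Immediate early genes are transcribed from factors already present in the resting cell, without new protein synthesis. Kinase cascades driven by calcium, growth factors or injury act on serum response factor, which binds the CArG box, and on CREB, which binds the cAMP response element (CRE). Fos and Jun family proteins pair to form the AP-1 transcription factor, Egr1 and Egr2 are zinc finger transcription factors, Nr4a1 is an orphan nuclear receptor, and Atf3 is a stress-induced member of the ATF/CREB family. Arc is a cytoplasmic protein of neurons that regulates glutamate receptor traffic, and Dusp1 is a phosphatase that switches off MAP kinases. In the olfactory epithelium, some of these genes are known to respond to odor exposure in sensory neurons and to irritation or injury in several cell types.

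Promoter sequences from RefSeq (build GRCr8) were matched by symbol for 6 of the 10 genes: Fosb, Junb, Egr1, Egr2, Nr4a1 and Dusp1. The 250 bases before the start site are shown for the 5 of them in which a searched motif was found, because all 5 genes had their highest array and their highest rat in common with Fos. Capitals mark the CArG box and TGACG, the core of the CRE, which reads CGTCA where it lies on the other strand. They also mark TATAAA, searched on the gene's own strand, and the element bound by Egr proteins, GCGNGGGCG, searched on both strands. The windows lie at chr18:26736828-26737077 on the plus strand (Egr1), chr20:21054442-21054691 on the minus strand (Egr2), chr7:134259888-134260137 on the plus strand (Nr4a1), chr19:40080876-40081125 on the plus strand (Junb) and chr10:17184603-17184852 on the plus strand (Dusp1). For Egr2, Nr4a1 and Fosb, the start site of this table lay 760, 12985 and 322 bases inside the gene's outermost annotated end.
Egr1: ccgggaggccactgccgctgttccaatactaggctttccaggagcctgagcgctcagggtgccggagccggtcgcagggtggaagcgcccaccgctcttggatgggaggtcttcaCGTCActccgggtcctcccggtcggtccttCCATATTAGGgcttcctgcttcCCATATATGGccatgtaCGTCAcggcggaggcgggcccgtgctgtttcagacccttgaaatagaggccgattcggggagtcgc
Egr2: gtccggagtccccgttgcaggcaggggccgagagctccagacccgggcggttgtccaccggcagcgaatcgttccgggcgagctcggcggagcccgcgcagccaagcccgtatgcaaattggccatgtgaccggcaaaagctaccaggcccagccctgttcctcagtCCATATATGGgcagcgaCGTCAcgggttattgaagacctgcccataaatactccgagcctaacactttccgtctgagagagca
Nr4a1: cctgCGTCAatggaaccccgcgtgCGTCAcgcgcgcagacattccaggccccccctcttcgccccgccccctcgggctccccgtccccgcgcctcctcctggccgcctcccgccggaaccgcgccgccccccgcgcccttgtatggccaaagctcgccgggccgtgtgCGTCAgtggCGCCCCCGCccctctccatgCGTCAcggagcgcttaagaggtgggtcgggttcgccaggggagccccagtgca
Junb: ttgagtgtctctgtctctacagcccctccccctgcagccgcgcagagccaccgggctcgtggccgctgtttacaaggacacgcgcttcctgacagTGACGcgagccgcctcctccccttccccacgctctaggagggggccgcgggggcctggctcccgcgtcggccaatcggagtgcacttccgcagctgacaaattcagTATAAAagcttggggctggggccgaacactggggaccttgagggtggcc
Dusp1: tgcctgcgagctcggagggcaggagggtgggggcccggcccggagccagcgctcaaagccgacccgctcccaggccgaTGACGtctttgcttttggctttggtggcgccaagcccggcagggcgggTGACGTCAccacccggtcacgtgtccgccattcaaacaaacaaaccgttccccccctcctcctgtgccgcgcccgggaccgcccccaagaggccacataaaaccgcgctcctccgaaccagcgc

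The CArG box was found in 2 of the 6 promoters, against 1.64% of the 33469 promoters of 300 bases in the table. Egr1 held 2 CArG boxes, which began 105 and 83 bases before the start, and Egr2 held 1 that began 83 bases before it. In both genes the CRE core followed, 66 bases before the start. TGACG was found in 5 of the 6 promoters and in 21.2% of all. Nr4a1 held 4 copies of TGACG and Dusp1 held 3, of which 2 overlapped in the full palindrome TGACGTCA. TATAAA was present in Junb alone of the 6 (8.8% of all promoters) and GCGNGGGCG in Nr4a1 alone (4.98% of all). TGANTCA, the letters of the AP-1 element, was found in none of the 6 and in 7.33% of all. Fosb held none of the 5 motifs in this window. These matches describe the letters of the windows and are not measured binding sites.

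**Figure D1:**
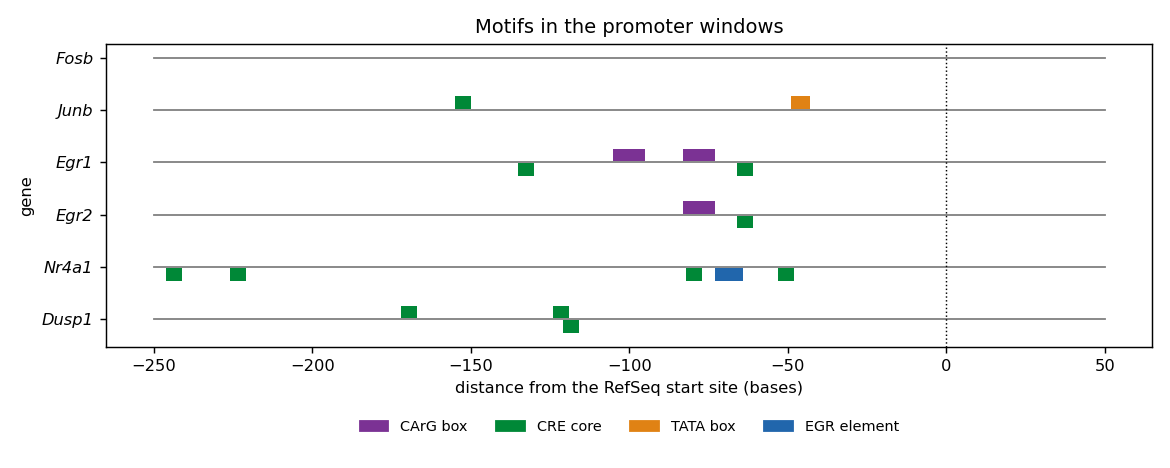
Positions of motifs in the 6 promoter windows, in bases from the RefSeq start site (dotted line), with 1 line per gene. Bars above a line are on the gene's strand and bars below it on the other strand. The CArG pattern matches on both strands, and its boxes are drawn on the gene's strand. Egr1 and Egr2 share a CArG box that began 83 bases and a CRE core 66 bases before the start.

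Levels are given as log2 of the probe signal over the median signal of its array, so that 0 is the array median, and different probes are not set against each other. Array medians lay between 57.4 and 83.4 intensity units, and each array held 26233 to 28741 probes that cleared the background. The 15 arrays lay on 4 slides, of which slide 1 alone (male 1, both nostrils of male 2 and nostril A of female 3) held both sexes. The tissue label was checked on marker genes: all 8 probes for mature olfactory neurons (Omp, Gnal, Cnga2, Cnga4, Adcy3 and Stoml3) and all 4 for immature neurons were expressed. As the samples were whole tissue, more cells of a type and more RNA per cell cannot be told apart.

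Of the 10 immediate early genes, 9 were expressed, here meaning well above background on at least 11 arrays, and all 9 were so on all 15. Egr2 was well above background on 10 of 15 arrays and not on male 1, both nostrils of male 6, nostril B of female 3 and nostril A of female 7. Under the looser call of a positive and significant signal, all 10 were expressed. The probes for Jun, Egr1 and Arc were printed 10 times on each array, which gave a technical error. The SD over these spots had a median of 0.04 for Jun, 0.05 for Egr1 and 0.09 for Arc, and did not exceed 0.18 on any array.

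Among the AP-1 genes, Fos varied most. Its rat means were 1.24, 2.94, 1.31 and 1.74 in males 1, 2, 5 and 6, and 0.87, 1.88, 1.30 and 1.91 in females 3, 4, 7 and 8. Male 2 stood above all other rats, female 3 was lowest, and the sexes overlapped. On single arrays, Fos was 3.56 in nostril A and 2.32 in nostril B of male 2, against 0.82 to 2.06 on the other 13 arrays. Nostril A of male 2 was thus 4.58-fold above the median of the arrays of the other rats.

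Junb, the AP-1 partner that restrains Jun, had rat means of 2.09, 2.78, 2.35 and 2.48 in males 1, 2, 5 and 6, and 2.12, 2.06, 2.23 and 2.09 in females 3, 4, 7 and 8. Males 2, 5 and 6 were above all females and male 1 was among them. Jun, the central AP-1 subunit and one of the brighter probes, was almost flat, with a lowest array of 7.26, a median of 7.45 and a highest array of 7.62, a 1.29-fold range. Fosb, whose protein can replace Fos in AP-1, lay between -1.24 and -0.35 on 14 arrays and at 0.31 in nostril B of male 6, while nostril A of the same rat was at -1.11. Fosb was read from 1 spot per array, so that this value has no technical replicate.

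Egr1 had rat means of 2.55, 3.92, 3.41 and 3.21 in males 1, 2, 5 and 6, and 2.97, 3.09, 2.99 and 3.14 in females 3, 4, 7 and 8. The 4 females lay close together, and the males held both the highest and the lowest rat. Nostril A of male 2 reached 4.49, nostril B 3.35, and the other 13 arrays 2.55 to 3.46. The technical SD over spots did not exceed 0.10 on any array. Egr2 was highest in nostril A of male 2 (-0.56) and nostril A of male 5 (-0.74), and lay between -2.82 and -1.75 on the other 13 arrays.

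Nr4a1 had rat means of 6.63, 7.09, 6.13 and 5.98 in males 1, 2, 5 and 6, and 5.99, 6.17, 6.04 and 6.12 in females 3, 4, 7 and 8. Males 1 and 2, whose arrays shared slide 1, were above all other rats. Nostril A of male 2 read 7.49 and nostril B 6.69, against 5.98 to 6.63 elsewhere. Atf3 read 3.08 and 2.35 in nostrils A and B of male 2, against 1.64 to 2.21 elsewhere.

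Dusp1 read 4.33 in nostril A of male 2 and 3.87 in its nostril B, and the other arrays lay between 3.49 (male 1) and 3.95. Arc had rat means of 0.01, 1.15, -0.14 and -0.22 in males 1, 2, 5 and 6, and -0.42, 0.12, -0.68 and 0.82 in females 3, 4, 7 and 8. Male 2 and female 8 were highest, and the array range of 2.75 log2 units was 6.72-fold. Arc was the 1 gene highest in nostril B of male 2 (1.44, against 0.85 in nostril A).

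**Figure D2:**
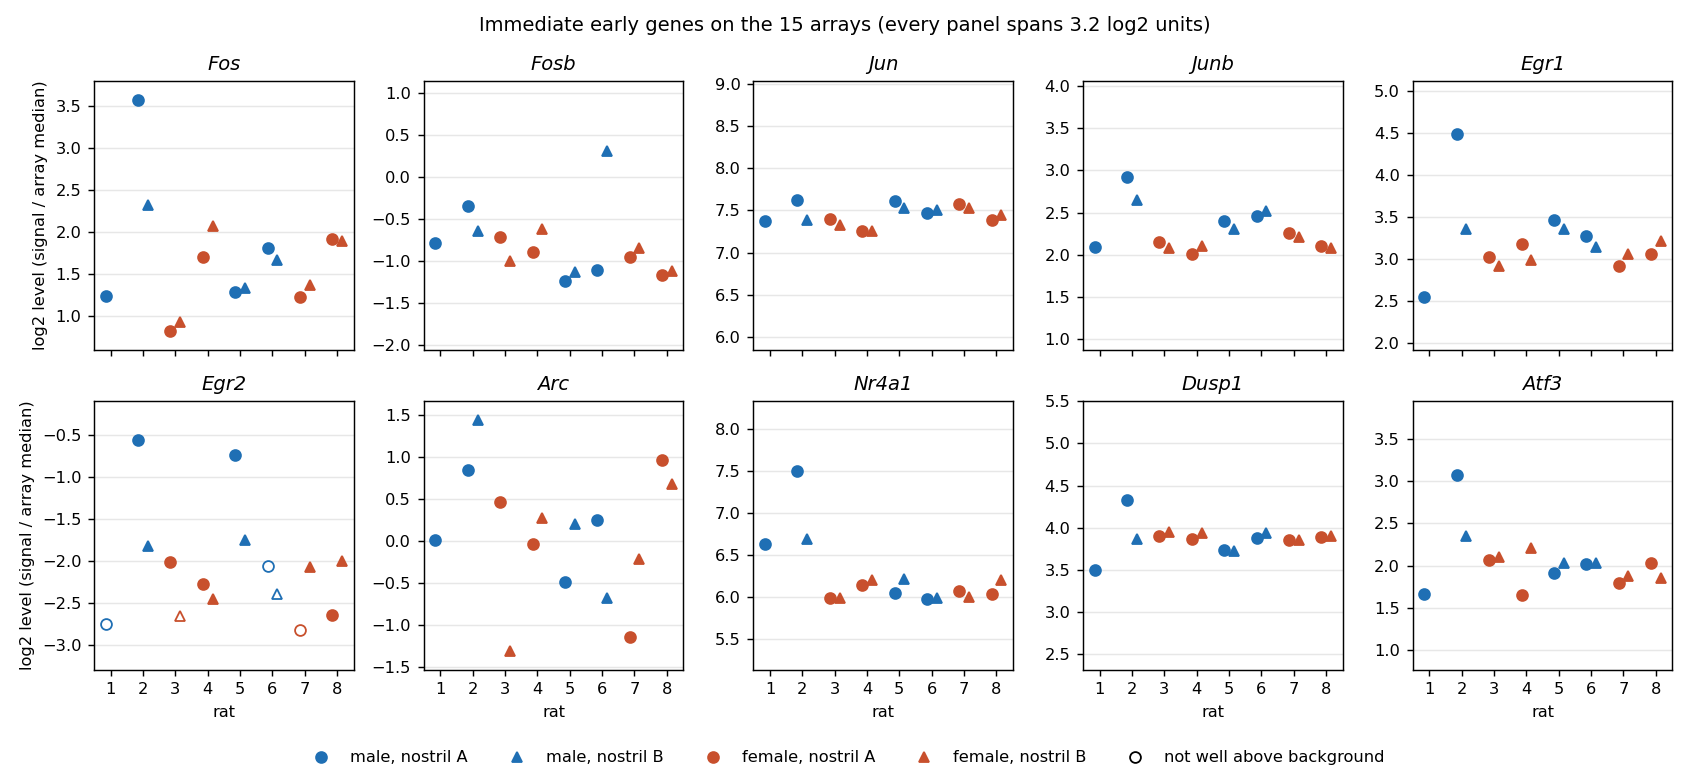
Level of each immediate early gene (log2 of signal over the array median) in rats 1 to 8, with circles for nostril A, triangles for nostril B, blue for males, orange for females and open symbols for signals not well above background. Every panel spans the same 3.2 log2 units. Nostril A of male 2 is highest in 8 panels, Arc is highest in nostril B of male 2, and Fosb in nostril B of male 6.

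Nostril A of male 2 was the highest of the 15 arrays for 8 of the 10 genes, the exceptions being Fosb and Arc, whereas it was highest for 5.58% of the 27574 probes tested on single arrays. Male 2 was the highest of the 8 rats for 8 of the 10 genes, the exceptions being Jun (male 5) and Fosb (male 6), against 8.52% of probes. These counts were made after the values had been seen, and all come from the same 2 RNA samples. Of the 10 genes, 8 were above every array of the other rats in nostril A of male 2 and 5 were so in nostril B (Fos, Junb, Arc, Nr4a1 and Atf3), against 6.36% and 4.41% of all probes tested. Fold increases of nostril A over the median of the other rats' arrays were 3.27 for Egr2, 2.72 for Nr4a1, 2.68 for Egr1, 2.08 for Atf3, 1.79 for Arc, 1.71 for Junb, 1.51 for Fosb, 1.37 for Dusp1 and 1.13 for Jun.

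The cell type markers of this array were read beside these values. The summed signals of 7 of 10 marker lists in nostril A of male 2 lay within the range of the other rats. Of the 3 others, respiratory ciliated cell markers (3 genes, 4 probes) summed to 347 array medians against 377 to 524 in the other rats, and sustentacular cell markers (3 genes, 4 probes) to 2348 against 2461 to 3023. Endothelial markers (3 genes, 5 probes, with both Vwf and Cdh5 having a probe that was never detected) summed to 50.4 in nostril A and 52.9 in nostril B, against 27.2 to 48.6 in the other rats. Leukocyte markers, with Ptprc having a probe that was never detected, summed to 270 there against 218 to 412 in the other rats. Their mean log2 level over probes, which gives dim and bright probes equal weight, was 1.60 in nostril A of male 2, above the 0.30 to 1.46 of the other rats. By the same mean the sustentacular list lay within the range of the other rats, and the ciliated and endothelial lists outside it. Of the 40 marker probes tested, 3 were highest in nostril A of male 2, against 5.58% of all probes, and 2 of these were among the 7 leukocyte probes. In nostril B of male 2, mature olfactory neuron markers summed to 1561, below the 1618 to 2057 of the other rats, and sustentacular markers to 2255, below the range given above. Both lists were also below the other rats there by mean log2 level. The part of these cell types in the result was not tested.

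Females were compared with males on the mean of the nostrils of each rat (n = 4 and 4; male 1 by nostril A alone) with limma and Benjamini-Hochberg adjustment over 27625 probes. None of the 10 genes passed a false discovery rate of 1% or 5%, and 0.0434% of all probes passed 1%. At an unadjusted p under 0.05 there was 1 gene, Junb, against 17.1% of all probes. Junb was 2.43 ± 0.29 in males and 2.12 ± 0.07 in females (SD, n = 4), a difference of -0.30 (SE 0.13, adjusted p = 0.280). Without male 2 the Junb difference was -0.18 and 0 genes were under 0.05, against 16.6% of all probes. Without male 1 it was -0.42 and 3 genes were under 0.05 (Junb, Egr1 and Egr2), against 18.1%, with adjusted p values of 0.144 to 0.179. Females were lower on average for 9 of the 10 genes, against 47.9% of all probes, with a median difference of -0.23 against 0.01 over all probes, and Dusp1 was the exception (0.09). Without male 2, females were lower for 6 of the 10, against 48.5% of all probes, and the median difference was -0.04. The male and female rats overlapped for every gene.

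The male spread exceeded the female spread for 8 genes, Jun and Arc being the exceptions, against 52.5% of all probes, and for 7 without male 2, against 50.6%. With all 8 rats, the male and female SDs were 0.57 and 0.08 for Egr1 and 0.50 and 0.08 for Nr4a1. Without male 2 the difference for Fos went from -0.32 to 0.06, and that for Nr4a1 from -0.38 to -0.17. With slide as a block and rat as a random block, which rests on slide 1 for both sexes, the difference was -0.89 for Nr4a1 (adjusted p = 0.0693) and -1.31 for Fos (adjusted p = 0.273). Within slide 1, nostril A of female 3 was 0.87 below the mean of males 1 and 2 for Nr4a1 (5.99 against 6.86) and 1.27 below it for Fos (0.82 against 2.09), with 1 female array and no test.

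Nostril A was compared with nostril B in 7 rats with rat as a block. None of the 10 genes passed, no probe of the 27574 passed 5%, and none of the 10 had an unadjusted p under 0.05, against 5.89% of all probes. Mean differences ran from -0.20 ± 0.58 (SD, n = 7) for Fosb to 0.29 ± 0.77 for Egr2. The spread around these means differed greatly between genes and rats.

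In male 2, nostril A exceeded nostril B by 1.25 for Fos, 1.13 for Egr1, 1.26 for Egr2, 0.81 for Nr4a1, 0.72 for Atf3 and 0.46 for Dusp1. These were the 6 of 10 genes above 0.3 there, against 7.08% of probes, while Junb (0.27), Fosb (0.29) and Jun (0.23) were below that mark and Arc was lower in nostril A by 0.59. In the other 6 rats, the difference for Nr4a1 stayed between -0.17 and 0.07 and that for Dusp1 between -0.08 and 0.01. Fos and Atf3 had their next largest differences in female 4, where nostril B was higher by 0.36 and 0.57.

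Arc differed between nostrils in either sign, by 0.28 to 1.77 in size. Nostril A minus B was -0.59, -0.69 and 0.92 in males 2, 5 and 6, and 1.77, -0.30, -0.93 and 0.28 in females 3, 4, 7 and 8. In female 3, Arc was at 0.47 in nostril A and at -1.31 in nostril B, which lay on slides 1 and 2. Both nostrils of each other rat shared a slide. The SD over the 10 Arc spots was 0.11 and 0.15 on these 2 arrays, and their spot ranges did not overlap (0.34 to 0.73 against -1.55 to -1.12).

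The SD between nostrils within a rat, pooled over 7 rats, was 0.65 for Arc, 0.54 for Egr2, 0.40 for Fosb, 0.35 for Fos, 0.32 for Egr1, 0.25 for Atf3, 0.23 for Nr4a1, 0.13 for Dusp1, 0.09 for Junb and 0.07 for Jun. Over all tested probes its median was 0.12, and over probes whose mean level lay within 0.5 of that of the gene it was 0.15 for Arc, 0.30 for Egr2, 0.19 for Fosb and 0.08 to 0.11 for the other 7 genes. Without male 2 it fell to 0.12 for Fos, 0.10 for Egr1, 0.07 for Nr4a1 and 0.03 for Dusp1, and was 0.68 for Arc and 0.43 for Fosb. Without male 6 it was 0.15 for Fosb, with a median of 0.19 over probes of like level in the same 6 rats, and 0.65 for Arc. The nostril difference did not differ between the sexes for any gene in an interaction test (all adjusted p = 1.00). The smallest unadjusted p was 0.0333, for Egr2, the only 1 of the 10 under 0.05, against 2.36% of all probes.

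**Figure D3:**
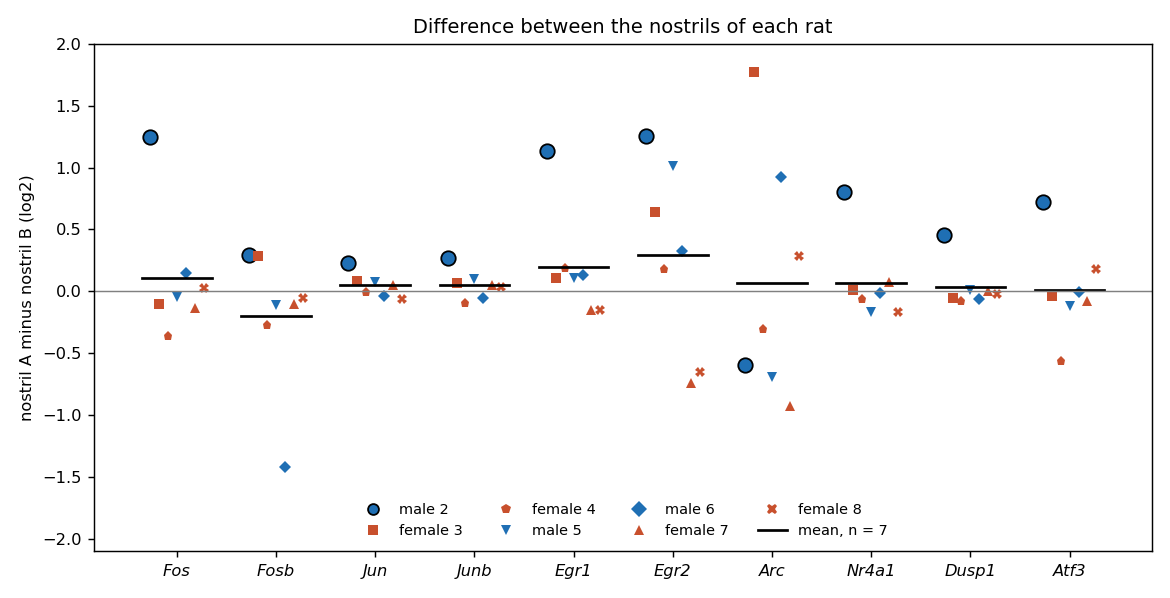
Nostril A minus nostril B (log2) for each gene in the 7 rats with both nostrils, with blue for males, orange for females, a large outlined circle for male 2 and a black bar for the mean. Male 2 stands apart at 1.25 for Fos, 1.13 for Egr1 and 0.81 for Nr4a1, male 6 at -1.42 for Fosb, and the Arc values spread from -0.93 to 1.77.

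Whether rats of the same sex differed beyond the spread between their nostrils was tested with an F-statistic in limma over 15 arrays. None of the 10 genes passed 1%, against 2.79% of probes, and 3 passed 5%, against 16.1%: Fos (F = 9.07, adjusted p = 0.0205), Junb (F = 8.02, adjusted p = 0.0258) and Nr4a1 (F = 6.97, adjusted p = 0.0331). At an unadjusted p under 0.05 there were 7, which added Jun, Egr1, Dusp1 and Atf3, against 37.1% of probes. The median F of the 10 genes was 3.62, against 2.37 over all probes. When slide was entered as a block, no member passed 5%, and the probes past 5% went from 4442 to 32 over the whole array. F was then 7.90 for Fos (adjusted p = 0.177), 10.8 for Junb (adjusted p = 0.144) and 1.20 for Nr4a1 (adjusted p = 0.614). Slide 3 held males 5 and 6 alone and slide 4 females 7 and 8 alone, so that this fit compares mostly rats that shared a slide.

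Without male 2, Fos alone passed 1% (F = 23.1, adjusted p = 0.00680), against 1.4% of all probes in that fit, and the rat means it then rested on were 1.24 to 1.74 in the other males and 0.87 to 1.91 in the females. The nostrils of these rats differed by 0.02 (female 8) to 0.36 (female 4, at 1.70 and 2.06), and male 1 had 1 nostril. In the same fit, Nr4a1 (F = 11.5, adjusted p = 0.0244) and Egr1 (F = 10.9, adjusted p = 0.0265) passed 5% beside Fos, against 9.39% of all probes, and Junb had an adjusted p of 0.0941. For both genes male 1, read by 1 array, lay outside the remaining rats. It was at 6.63 against 5.98 to 6.17 for Nr4a1, and at 2.55 against 2.97 to 3.41 for Egr1. Without nostril A of male 2 alone, Fos again passed 1% (F = 26.1), against 1.08% of all probes, and 3 genes of the 10 passed 5%, against 8.86%. With background corrected by normexp, Fos (adjusted p = 0.0211) was the 1 gene of the 10 past 5%, against 0.557% of all probes.

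Co-variation was measured over the 8 rats for the 36 pairs of the 9 expressed genes. Pearson's r was positive in 34 pairs, with a median of 0.536 and a range from -0.0918 to 0.894. The largest was Egr1 with Atf3 (r = 0.894, exact permutation p = 0.00791, adjusted p = 0.114; Spearman's rho = 0.619, exact permutation p = 0.115, adjusted p = 0.517). Fos with Arc (r = 0.847, exact permutation p = 0.00568, adjusted p = 0.114; rho = 0.786, exact permutation p = 0.0279, adjusted p = 0.330) and Junb with Egr1 (r = 0.839, exact permutation p = 0.00947, adjusted p = 0.114; rho = 0.714, exact permutation p = 0.0576, adjusted p = 0.346) followed. No pair passed an adjusted 0.05 by either measure, and 8 pairs had an unadjusted exact permutation p under 0.05 for r. No counts over pairs of other probes are set beside these, so whether they exceed those of other genes was not tested. All p-values here are two-sided.

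Without the 2 rats farthest from the median of the first gene, r was 0.0811 for Egr1 with Atf3 (males 1 and 2 left out), 0.642 for Fos with Arc (male 2 and female 3) and 0.589 for Junb with Egr1 (males 2 and 6). Without male 2 alone, r was 0.711, 0.666 and 0.566 for the same pairs, so that the first fell near 0 only when male 1 was left out as well. In that set of 7 rats, the median r of the 36 pairs was 0.0389, 20 pairs were positive, and the values ran from -0.907 (Nr4a1 with Dusp1) to 0.813 (Dusp1 with Atf3). Jun with Junb had r = 0.723, and no pair had an adjusted p under 0.05. As deviations from the slide mean over 15 arrays the median r was 0.536, and over slides 2 to 4, which held no array of male 2, it was -0.0572.

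Differences between nostrils were correlated over 7 rats. Their median r over the 36 pairs was 0.708 and fell to -0.0292 without male 2. The pair with the smallest p was Junb with Dusp1 (r = 0.877, exact permutation p = 0.00456, adjusted p = 0.104; rho = 0.893, exact permutation p = 0.0123, adjusted p = 0.410), with r = 0.801 without male 2 and 0.655 without male 2 and female 4. Fos with Atf3 had r = 0.920 (exact permutation p = 0.00575, adjusted p = 0.104; rho = 0.857, exact permutation p = 0.0238, adjusted p = 0.410), with r = 0.836 without male 2 and 0.423 without male 2 and female 4. No pair passed an adjusted 0.05.

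**Figure D4:**
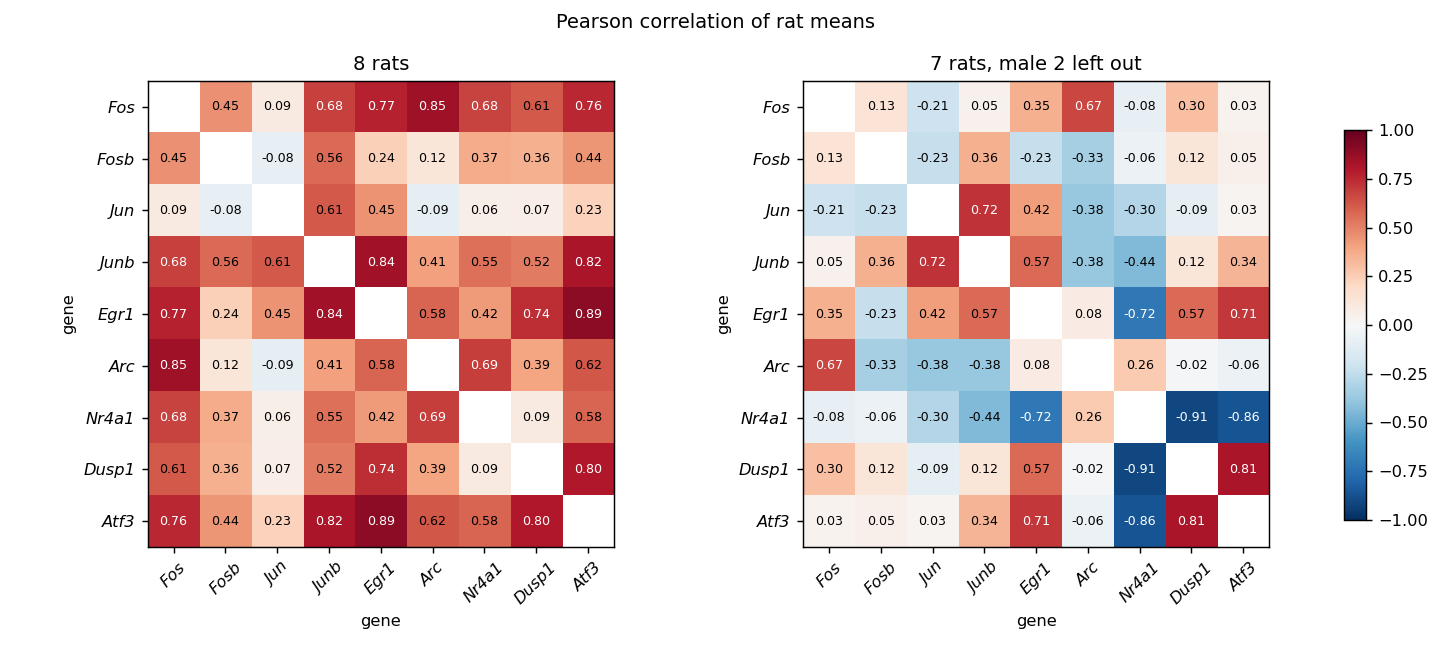
Pearson's r between the rat means of the 9 expressed genes, over 8 rats (left) and over the 7 rats other than male 2 (right), with red for positive and blue for negative values. The median of the 36 pairs is 0.536 on the left and 0.0389 on the right.

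The genes whose pattern was most like the mean profile of the 9 expressed genes were sought among named probes over the 15 arrays, as a description with no test. The highest was Adm, the vasodilator peptide adrenomedullin (r = 0.926 over 15 arrays, 0.931 over 8 rats and 0.982 over 7 nostril differences). It was at 4.80 and 4.49 in nostrils A and B of male 2 and between 4.00 and 4.28 elsewhere. Both probes for Cyr61, a secreted matrix protein that is itself an early response gene, followed (r = 0.856 and 0.854), at 4.83 and 5.20 in nostril A of male 2. Then came Hmox1, the heme-degrading enzyme heme oxygenase 1 (r = 0.844), and LOC362156, which encodes a membrane-associated DHHC zinc finger protein (r = 0.840).

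Edn2, the vasoconstrictor peptide endothelin 2 (r = 0.803), had the widest range of these 10 probes, with 6.07 and 4.40 in nostrils A and B of male 2 against 2.73 to 3.90 elsewhere, or 7.15-fold over the median of the other rats in nostril A. The others were Trib1, a pseudokinase (r = 0.782), Rtp4, a receptor transporter (r = 0.779), Gjb2, which encodes connexin 26 (r = 0.777), and Irgm, a GTPase of innate immunity (r = 0.773). Without male 2 the correlations fell to 0.514 for Adm, 0.647 and 0.513 for the Cyr61 probes, 0.171 for Hmox1, -0.0735 for LOC362156, -0.224 for Edn2, 0.552 for Trib1, 0.353 for Rtp4, 0.548 for Gjb2 and 0.595 for Irgm. The probes had been picked with male 2 included, and none of them was among the 10 most alike when the search left out male 2, which was led by Pcsk4, a proprotein convertase (r = 0.886, but -0.310 over 15 arrays). Other probes of the same genes could differ, with r = 0.520 and 0.233 over 15 arrays for the 2 further probes of Trib1 and -0.305 for the further probe of LOC362156. Among the members themselves, Fos followed the mean of the other 8 most closely (r = 0.888) and Jun least (r = 0.240). Without male 2, Fos was again highest (r = 0.549) and Nr4a1 was lowest (r = -0.228), with Jun at -0.161.

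**Figure D5:**
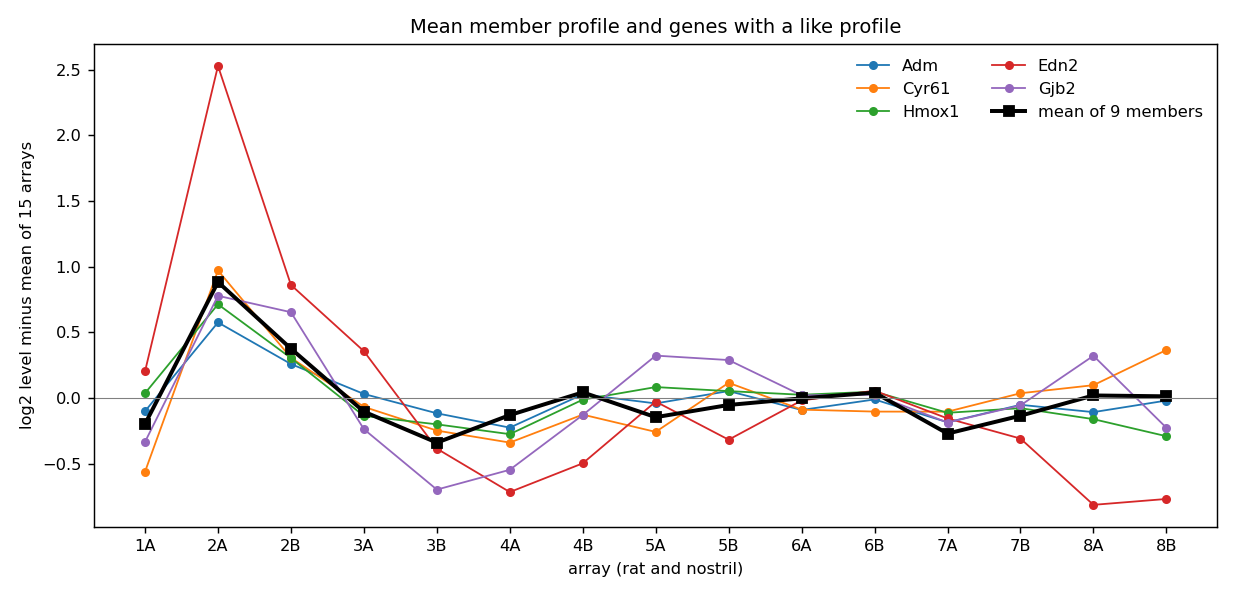
Level minus the mean of the 15 arrays (log2) on each array, named by rat and nostril, for the mean of the 9 expressed immediate early genes (black squares) and 5 genes of like profile (Cyr61 by the first of its 2 probes). All peak in nostril A of male 2, where the mean of the 9 genes is 0.88 and Edn2 is at 6.07 on the level scale.

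Related genes were followed in 4 further lists with 109 tested probes for 76 genes. Other early response transcription factors (22 probes) had 10 probes with their highest array in nostril A of male 2, and early response effectors (32 probes) had 10. Upstream kinases and factors (36 probes), which include Srf, Creb1 and the MAP kinases, had 3, and chaperone and stress genes (19 probes) had 5. The background share for that array was the 5.58% given above. Nr4a3, a nuclear receptor related to Nr4a1, read 3.66 in nostril A and 0.93 in nostril B of male 2 by its brighter probe, against -0.94 to 3.16 elsewhere, and 2.66 and -0.27 by the other, against -1.56 to 1.73.

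Between the sexes, none of the 109 probes passed 5%. The nearest was Sgk, a serum and glucocorticoid induced kinase, which was higher in females by 0.56 (SE 0.08, adjusted p = 0.0611). Sgk led the effectors, followed by Snf1lk, a salt-inducible kinase (0.32, adjusted p = 0.109). The smallest adjusted p among the transcription factors was that of Crem, a CRE binding factor (-0.30, adjusted p = 0.142), followed by Nr4a3 (-1.48, SE 0.46, adjusted p = 0.160). Among the chaperone and stress genes it was that of Ddit3, a stress-induced transcription factor (-0.31, adjusted p = 0.131), and among the upstream genes that of Rps6ka5, a kinase of CREB (0.32, adjusted p = 0.204). At an unadjusted p under 0.05, against 17.1% of all probes in either direction, 6 of the 22 other transcription factor probes were lower in females and 0 higher, 3 of the 32 effector probes were lower and 5 higher, 5 of the 19 chaperone and stress probes were lower and 1 higher, and 0 of the 36 upstream probes were lower and 2 higher. The medians of the 4 lists lay between -0.06 and 0.0019, against 0.01 over all probes. Between nostrils none of the 109 probes passed 5%, and the smallest adjusted p was 0.781.

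Between rats of one sex, more of these probes passed, but so did 16.1% of all probes at 5% and 2.79% at 1%. The transcription factors had 6 of 22 past 5%, among them Bhlhb2 (F = 11.2, adjusted p = 0.0133), a clock-linked repressor, Klf10 (F = 9.81, adjusted p = 0.0175) and Nfil3 (F = 6.31, adjusted p = 0.0404). The effectors had 5 of 32, led by the clock gene Per1 (F = 13.4, adjusted p = 0.00959), the 1 effector past 1%. Ier3, a survival factor (F = 9.31, adjusted p = 0.0196), and Rgs2, a regulator of G protein signaling (F = 7.33, adjusted p = 0.0304), were also past 5%. Kinases and upstream factors had 5 of 36. Both tested probes of Rps6ka5 passed (F = 8.43, adjusted p = 0.0236, and F = 6.64, adjusted p = 0.0364). The neuronal kinase Camk2a (F = 7.87, adjusted p = 0.0269) and Creb1 (F = 7.53, adjusted p = 0.0289) each passed by a single probe. The further tested probe of each did not pass. Chaperone and stress genes had 7 of 19 probes. Of these, a probe for Hspa1a, an inducible heat shock protein (F = 16.6, adjusted p = 0.00578), and 2 probes for Hspca, a cytosolic chaperone of the heat shock family, passed 1%. A further Hspca probe passed 5% (F = 10.1, adjusted p = 0.0164), so that this count holds the same gene several times. At 5%, the effectors and the upstream genes did not exceed the share of all probes. With slide as a block a single probe of all 27574 passed 1%, and the count past 5% fell as given above. Median F values were 2.82, 2.47, 2.05 and 3.46 for the 4 lists in the order given, against 2.37 over all probes.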

How the data were processed

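Total RNA of the olfactory epithelium was labeled with Cy3 and hybridized to 4 × 44K whole rat genome arrays of 60-mer probes. The authors scanned the arrays and extracted intensity values with Agilent Feature Extraction (9.5.1.1 in the file headers, annotation on build rn3), already background-subtracted. The deposited value table holds a ratio per probe, made by the authors by dividing by the array median and then by the median of the probe over arrays. The scanner intensities were used here, and the ratio table as an alternative.

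Spots marked as outliers (61 to 175 per array) were left out, spots of a probe averaged, signals divided by the array median, floored at 0.1 and taken to log2. Among the 555 readings of the member probes, 24 were left out and none was saturated. Probes well above background on at least 7 of 15 arrays were tested with limma 3.58.1 (R 4.3.3; eBayes with trend, two-sided, Benjamini-Hochberg over all tested probes, 1% as in the study with 5% beside it): 27625 probes on rat means and 27574 on single arrays. Correlations used exact permutation over all pairings of rats (numpy 2.4.6, scipy 1.17.1, pandas 2.3.3). Nostrils of a rat were paired by the labels, so rat was the block. Replicates were separate rats, and their number limits the precision. Slides came from the file headers.

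All probes of the 10 genes are named. The 10 probes most like them were those with a gene name, members left out, with the highest r over 15 arrays to the mean centered profile (both Cyr61 probes among them). From each list the probes past 5% (at most 5), or else the 2 with the smallest p, could be named. Nr4a3 in male 2 was named after its values were seen. The members, lists and tests were chosen with earlier results of these data known. Alternatives were other scalings (75th percentile, quantile), normexp with offset 50, floor 0.01, detection on 11 arrays or no filter, the ratio table, slide or nostril terms, 15 arrays as independent, the methods' t-test, and each rat left out. Leaving out nostril A of male 2 and pairing all 10 genes were added after seeing the data. The scripts were tested on simulated data. Gene names are those of the array design.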

Additional observations from a re-analysis of the deposited data

Results flagged for a closer look

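Each gene was examined for a rat far from the others, over the 4 males, over the 4 females and over the 7 nostril differences, and 6 of 30 such groups had one. Chance flags about 1 in 20 groups, and the groups of different genes share their rats. In male 2, nostril A minus B stood apart for Fos at 1.25 (next rat 0.15), for Egr1 at 1.13 (next 0.19), for Nr4a1 at 0.81 (next 0.07) and for Dusp1 at 0.46 (next 0.01). Arc in male 2, at a level of 1.15, stood apart from the other males (next 0.01). Fosb in male 6 had a nostril difference of -1.42, with -0.27 in the next rat. What lay behind these values was not tested.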

How the results depend on the processing

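No member passed 1% between the sexes or the nostrils under any alternative run, and none did between rats of one sex except Fos (F = 23.1 without male 2 and 26.1 without nostril A of male 2, 1 gene past 1% in each), so that leaving out a rat gave 0 to 1 there and 0 throughout the other 2 comparisons. The count of genes past 5% between rats, 3, became 2 with the ratio table, 1 with normexp or without a filter, 0 with slide as a block and 1 to 4 without a rat (1 without female 7). Treating 15 arrays as independent put Junb past 5% between the sexes (adjusted p = 0.0217). Over all probes, calls at 1% between the sexes went from 12 to 3 on 11 arrays, 6 with the ratio table, 8 with the methods' t-test (54 at 5%), 468 on single arrays with slide as a block and rat as a random block, and 1031 on single arrays treated as independent, and between rats from 768 to 74 with normexp, 356 with the ratio table, 1305 and 1450 with the 75th percentile and quantile scalings, 1 with slide as a block, and 186 to 898 without a rat (fewest without female 8). Between nostrils no probe passed 1% with the block, and none with no replicate block (404 against 1623 at an unadjusted p under 0.05). The rat block changed no other call.

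Leaving out each rat in turn changed the sign of these differences. The sex difference ran from -0.507 to 0.060 for Fos, from -0.526 to 0.075 for Arc and from -0.287 to 0.064 for Atf3, positive without male 2 alone, and from -0.016 to 0.186 for Dusp1, negative without male 1 alone. The nostril difference ran from -0.080 to 0.189 for Fos, -0.054 to 0.108 for Nr4a1 and -0.032 to 0.057 for Dusp1, negative without male 2 alone, from -0.105 to 0.110 for Atf3 (negative without male 2 or female 8), from -0.219 to 0.231 for Arc (negative without female 3 or male 6) and from -0.279 to 0.0065 for Fosb (positive without male 6). The median r over rats was 0.0389 to 0.634 without a rat, lowest without male 2, and 0.306 with male 2 by its nostril B alone. That of nostril differences was -0.0292 to 0.784, negative without male 2. Across 2 scalings and normexp it was 0.531 to 0.575 over rats and 0.430 to 0.652 for nostril differences. The cause was not tested. Egr2 lay near background, so that its lower values are uncertain.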
